A study of Homo sapiens and Mus musculus with 16 samples.

Results

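The heterogeneous nuclear ribonucleoprotein (HNRNP) genes, the serine and arginine-rich splicing factor (SRSF) genes and the related TRA2A and TRA2B genes were followed from the cytoplasm into P-bodies in 4 cell types. Members were chosen by symbol alone, as every HNRNP or SRSF symbol plus TRA2A and TRA2B, with 4 human pseudogenes left out. The human table held 38 such genes among 22286, and the mouse table held 33 among 15881. HNRNPA1L2, HNRNPCL1, HNRNPCL3, HNRNPCL4 and SRSF8 had no counterpart in the mouse table.

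HNRNP and SR proteins coat newly made RNA in the nucleus and decide which exons are joined. SR proteins carry RNA recognition motifs and a tail of arginine and serine repeats (the RS domain), bind exonic enhancers and recruit the splicing machinery, while many HNRNP proteins bind silencers and oppose them. TRA2A and TRA2B are SR-like activators with an RS domain at each end. Several members shuttle to the cytoplasm, where they act in mRNA export, translation and decay. Many of these genes control their own level through alternative isoforms that carry premature stop codons. P-bodies are cytoplasmic granules of mRNA, decapping factors and translational repressors such as LSM14A, DDX6 and EDC4. What was measured here was the mRNA of each splicing factor, not its protein.

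P-bodies were collected as GFP-LSM14A particles by fluorescence-activated particle sorting, and the presort cytoplasmic fraction of the same kind of cells was the comparison. Per the study's methods that fraction was a resuspended pellet of the spun lysate, from which the P-bodies were then sorted. It therefore still held P-bodies and lacked what stayed in the supernatant, and it is called cytoplasm here. The 16 libraries made 8 groups of 2, a P-body and a cytoplasm group for each of 4 cell types. HEK293T-LSM14a-GFP is a transformed line that was first grown from human embryonic kidney. Both the liver bud progenitors and the neurons, taken at day 20, were made by differentiating UCLA4-LSM14a-GFP, a line of human embryonic stem cells with the tag at the AAVS1 locus. The mouse embryonic stem cells (mESC) were the KH2-LSM14a-GFP line in serum-LIF. Every group expressed the tagged LSM14A, so no untagged control entered. The HEK293T and mESC libraries were labelled total RNA and made with random primers, and the liver bud and neuron libraries were labelled polyA RNA. Library chemistry and cell type therefore cannot be told apart between these pairs of cell types. Each tagged line was 1 engineered line, and p-values measure the spread between the 2 libraries of a group only, since the labels name no separate cultures.

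Levels are given in CPM, counts scaled to the library's total and by TMM normalization factors within each comparison. Library totals ran from 6368953 to 17972284 counts. The share of counts on ribosomal RNA genes was lower in P-bodies in every cell type, at 4.32% to 4.75% against 15.9% to 16.6% in HEK293T and at 12.5% to 12.8% against 20.4% to 21.1% in liver bud progenitors. The 2 neuron P-body libraries agreed less with each other than any other pair, with a Spearman correlation across genes of 0.915, against 0.962 to 0.988 elsewhere. Of 5 RNAs known to stay in the nucleus, liver bud P-bodies held less of all 5, and neuron P-bodies less of RN7SK, MALAT1 and MEG3. In HEK293T RN7SK was lower in P-bodies (1646 and 1751 against 7895 and 8914 CPM), while NEAT1, MALAT1 and KCNQ1OT1 were higher, by 1.61, 0.22 and 0.32 on the log2 scale. In mESC Malat1 was higher (0.22) and Neat1 lower (-1.77). Their part in the results below was not tested. Neuron markers summed to 10306 and 10390 CPM in neuron cytoplasm and to 187 CPM in both liver bud cytoplasm libraries. The 3 neural progenitor markers summed to 316 and 312 CPM in neuron cytoplasm. The 6 liver bud markers summed to 375 and 366 CPM in liver bud cytoplasm, of which APOB gave 289 and 272 CPM. AFP stood there at 7.61 and 7.46 CPM. In the same libraries 5 pluripotency markers still summed to 913 and 929 CPM, of which LIN28A gave 612 and 621 CPM. In mESC cytoplasm the 6 mouse ES markers summed to 2212 CPM in both libraries, and only Vim of the 4 feeder markers was in the table.

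RS domains hold many arginine codons, which can be the A-rich AGA or any of 5 others, so members that encode similar domains can differ in base composition. To show this, the 30 bases of coding sequence inside 1 exon that hold the most arginine codons are given for the 3 SRSF genes that were enriched in P-bodies of all 4 cell types and for SRSF2 and TRA2A, which were depleted in 3 and enriched in none. Whether each window lies in an RS domain was not checked. They were read from the hg38 genome, along the coding strand, with arginine codons in capitals.
SRSF4: AGACGACGCCGGtcctactccAGAagcCGG
SRSF11: AGAtcaAGAtcaCGTtctAGGAGGAGGAGG
SRSF10: tatgacAGAtacAGACGTtctAGAagcCGA
SRSF2: cctAGGCGGCGTCGCCGCagcCGAtccCGG
TRA2A: tcgAGGtcaAGGAGAcattctcatAGACGT
These windows lie in exons at chr1:29154707-29154736 (minus strand), chr1:70239468-70239497 (plus), chr1:23971921-23971950 (minus), chr17:76736434-76736463 (minus) and chr7:23516498-23516527 (minus). The SRSF4 window had a GC content of 66.7% and the SRSF10 window 43.3%, although both genes were enriched. The SRSF2 window had a GC content of 80.0% and the TRA2A window 46.7%, although both were depleted. Over the full coding sequence, AGA made up 43.5% of arginine codons in SRSF11, 41.2% in SRSF10, 36.7% in TRA2A, 21.6% in SRSF4 and 3.8% in SRSF2.

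More members were depleted in P-bodies than enriched in HEK293T, neurons and mESC, and more were enriched in liver bud progenitors. Enriched and depleted are used here for an adjusted p under 0.05 in edgeR's quasi-likelihood test of the P-body against the cytoplasm libraries, with Benjamini-Hochberg adjustment over all genes of the table, and a log2 change above 0 is higher in P-bodies. In HEK293T, 22 of 37 members tested were depleted, where 22.8% of all genes were, and 7 were enriched, where 19.3% of all genes were. In day 20 neurons 13 of 38 were depleted (14.1% of all genes) and 5 enriched (14.6%). In mESC 13 of 33 were depleted (20.6%) and 8 enriched (25.8%). In liver bud progenitors the order turned, with 14 of 38 enriched (21.4% of all genes) and 10 depleted (17.1%). The neuron count of depleted members fell to 5 without cytoplasm replicate 1 and to 7 without cytoplasm replicate 2, fits with 1 residual degree of freedom in which the lone library was assumed to vary like the others.

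**Figure D1:**
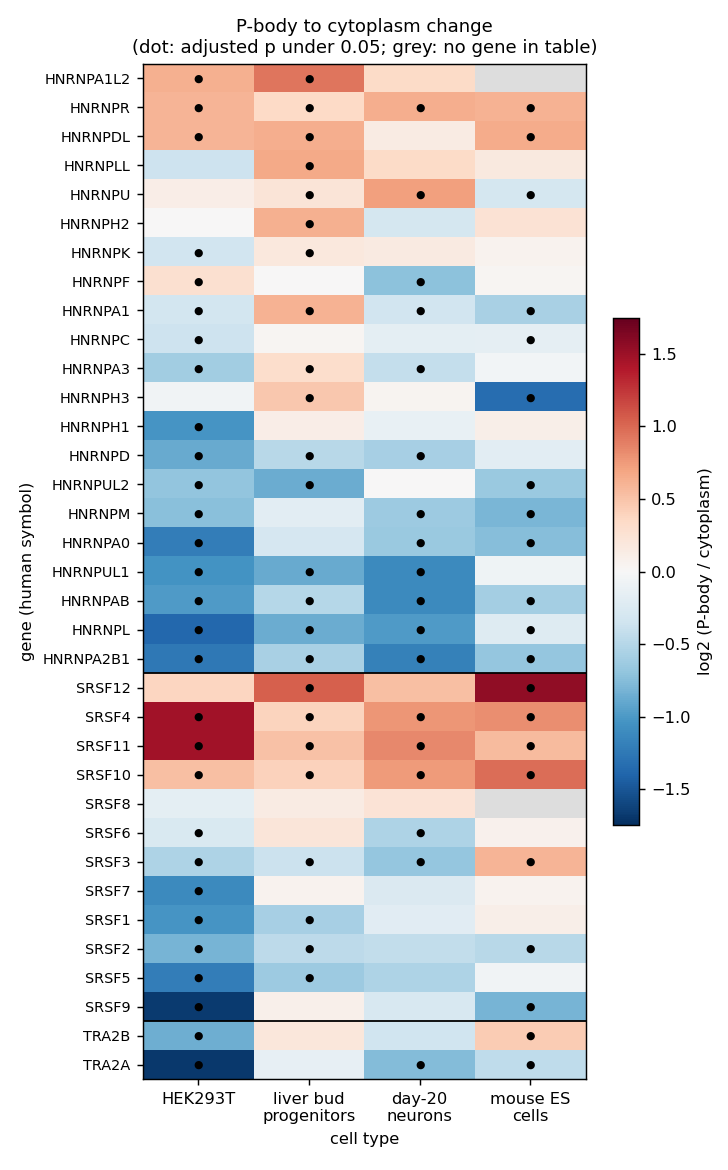
Log2 P-body to cytoplasm change (color) of 35 members, by cell type, with HNRNP genes above, SRSF genes in the middle and the TRA2 genes below. Dots mark an adjusted p under 0.05 and grey marks genes with no mouse counterpart in the table. The 3 HNRNPCL genes, at or near the detection floor, are not drawn. HEK293T shows the most depleted genes (22), and SRSF4, SRSF10, SRSF11 and HNRNPR are enriched in all 4 columns.

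Scaling by library size alone moved the median of all genes by -0.40 in mESC and by -0.18 in liver bud progenitors. It left 23 members depleted and 6 enriched in mESC, 12 and 8 in liver bud progenitors and 7 and 6 in neurons. Over all genes it called 6609 depleted and 2591 enriched of 15881 in mESC. It called 4850 and 3822 of 21951 genes in liver bud progenitors and 2356 and 3839 of 22093 in neurons. The liver bud order of the members therefore rests on the scaling. The members' median log2 change was -0.37 for HEK293T, 0.13 for liver bud progenitors, -0.23 for neurons and -0.05 for mESC, beside medians over all genes of -0.01, -0.09, 0.19 and -0.11. Low-count genes rarely pass the test, so the shares were also set beside those of genes that averaged 20 CPM or more. At that level 19 of 28 members were depleted for HEK293T (34.0% of all such genes), 8 of 28 for liver bud progenitors (27.4%), 13 of 27 for neurons (37.4%) and 10 of 27 for mESC (25.0%). Enriched members numbered 7 of 28 for HEK293T (50.9% of all such genes), 11 of 28 for liver bud progenitors (53.4%), 5 of 27 for neurons (31.1%) and 7 of 27 for mESC (54.1%). By family, 13 of 23 HNRNP genes and 9 of 14 SRSF and TRA2 genes were depleted in HEK293T (22.8% of all genes). In mESC 10 of 20 Hnrnp genes were depleted and 2 enriched, and 3 of 13 Srsf and Tra2 genes were depleted and 6 enriched. Of all mESC genes 20.6% were depleted and 25.8% enriched, and of those at 20 CPM or more 25.0% and 54.1%. Whether the families differ, or depend on the scaling, was not tested.

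Of the 38 human symbols, 4 were enriched in all 4 cell types, 3 were depleted in all 4, 8 were enriched in 1 or 2 and depleted in others, 5 more were enriched only, 14 were depleted only and 4 passed the test nowhere. Among the 12616 symbols tested in all 4 cell types, matched ignoring case, 10.2% were enriched in all 4 and 5.26% depleted in all 4. For the 33 members tested in all 4 these shares were 12.1% and 9.09%. The 12616 symbols include low-count genes and were not matched to the members for level, so these shares cannot set members apart. For the other patterns no share over all genes was counted.

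SRSF4 and SRSF11 were the most enriched members of HEK293T and SRSF10 and HNRNPR joined them in every cell type. SRSF4 is a large SR protein with a long RS domain, and its gene lies on chromosome 1 at 29147743 to 29181900 (hg38, minus strand). In HEK293T the 2 P-body libraries held 1029 and 989 CPM of SRSF4 and the cytoplasm libraries 372 and 358 CPM, a log2 change of 1.47 ± 0.05 (SE, 2 libraries a fraction, adjusted p = 1.2e-32). Every P-body library was above both cytoplasm libraries, and the same held in the other cell types. SRSF4 stood at 221 and 224 against 159 and 179 CPM in liver bud progenitors, a log2 change of 0.40 ± 0.07 (adjusted p = 1.7e-06). In neurons it stood at 299 and 301 against 172 and 178 CPM, a log2 change of 0.78 ± 0.09 (adjusted p = 2.2e-05). Mouse Srsf4, which shares 1532 exonic bases with the opposite-strand gene Gm12992, stood at 74.5 and 73.3 against 39.4 and 44.96 CPM, a log2 change of 0.81 ± 0.08 (adjusted p = 1.7e-08).

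SRSF11, an SR-related protein that contacts U2AF, lies on chromosome 1 at 70205682 to 70253052 (plus strand). Its HEK293T P-body libraries held 947 and 954 CPM against 339 and 347 CPM in cytoplasm, a log2 change of 1.47 ± 0.05 (adjusted p = 1.1e-32). The liver bud libraries held 301 and 290.4 against 204 and 209.7 CPM (0.51 ± 0.06, adjusted p = 2.2e-10), and the mESC libraries 233 and 219.8 against 159.7 and 149.8 CPM (0.55 ± 0.05, adjusted p = 4.4e-09). The 2 neuron P-body libraries were further apart, at 167 and 210.2 CPM, but both lay above the cytoplasm libraries at 102 and 109 CPM (0.84 ± 0.12, adjusted p = 0.00018). SRSF10, which turns from an activator into a repressor of splicing when it loses phosphate, had its largest change in mESC, where P-bodies held 264 and 248 CPM against 133 and 127 CPM in cytoplasm, a log2 change of 0.98 ± 0.05 (adjusted p = 7.3e-14). Its changes in HEK293T, liver bud progenitors and neurons were 0.53, 0.40 and 0.75. HNRNPR, an RNA-binding protein also known from axonal mRNA transport, had the narrowest range of the 4. Its P-body libraries held 205 and 205 CPM against 143 and 129.8 CPM in HEK293T (0.59 ± 0.07), 77.5 and 76.7 against 63.5 and 57.9 CPM in liver bud progenitors (0.35 ± 0.09), 106 and 130.05 against 72.6 and 80.0 CPM in neurons (0.63 ± 0.13) and 68.2 and 72.5 against 41.0 and 51.0 CPM in mESC (0.61 ± 0.09). Its liver bud call had an adjusted p of 0.0014, which rose to 0.0797 without liver bud cytoplasm replicate 2. The neuron change of SRSF10 had an adjusted p of 0.00278, and of 0.0717 without neuron cytoplasm replicate 1.

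**Figure D2:**
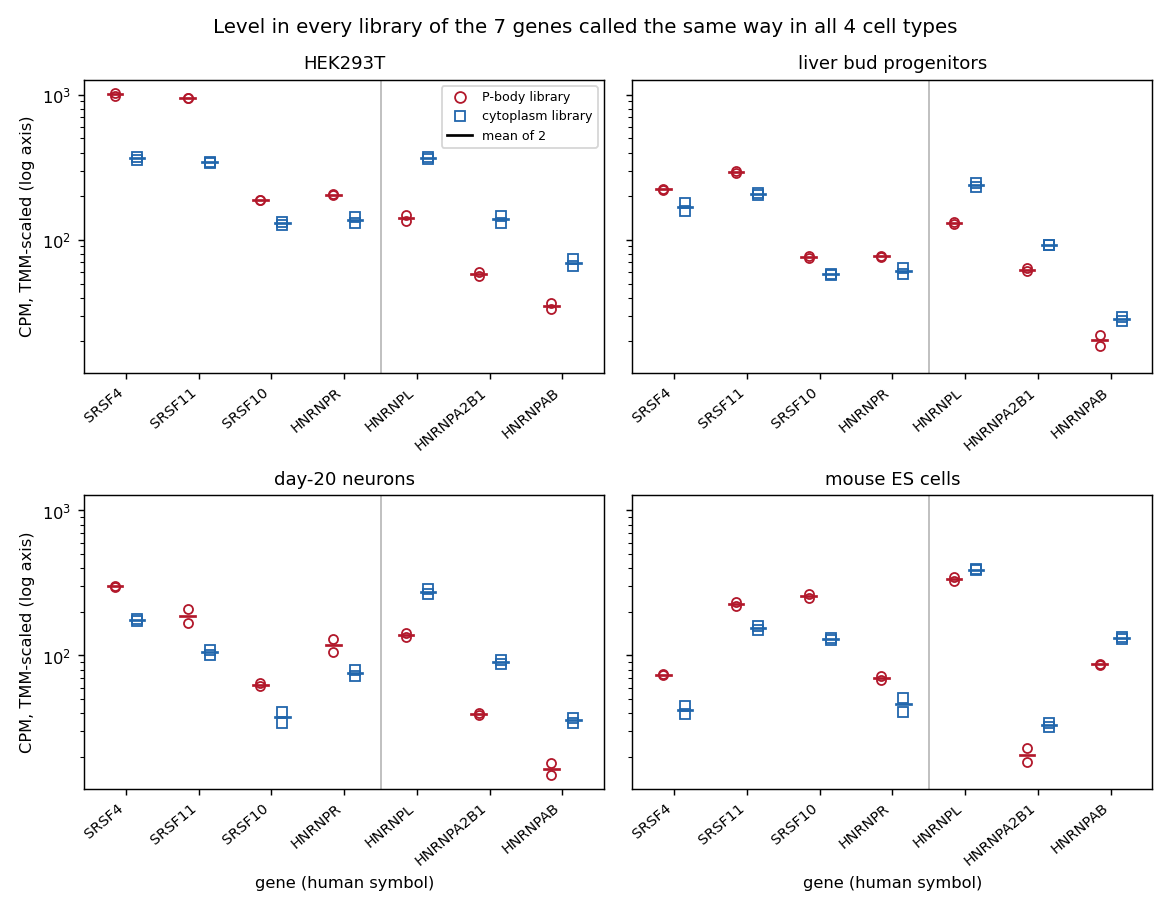
TMM-scaled CPM on a log axis in each of the 4 libraries of each cell type for the 7 members called the same way everywhere; circles are P-body libraries, squares cytoplasm libraries and bars the mean of 2. To the left of the grey line both circles lie above both squares for SRSF4, SRSF11, SRSF10 and HNRNPR, and to the right both lie below for HNRNPL, HNRNPA2B1 and HNRNPAB.

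HNRNPL, HNRNPA2B1 and HNRNPAB were depleted in all 4 cell types. HNRNPL, which binds CA-rich elements near exons, is encoded on chromosome 19 at 38836370 to 38852347 (hg38, minus strand). The P-body libraries held 148 and 136 CPM in HEK293T against 361 and 374 CPM in cytoplasm, a log2 change of -1.37 ± 0.06 (adjusted p = 4.1e-28). Liver bud P-bodies held 128 and 133 against 230.3 and 247 CPM (-0.87 ± 0.07, adjusted p = 1.3e-17) and neuron P-bodies 143 and 134 against 286 and 267 CPM (-0.99 ± 0.10, adjusted p = 4.9e-06). In mESC the gap was smaller, 346 and 326 against 389 and 394 CPM (-0.22 ± 0.04, adjusted p = 0.00017), though the fractions still did not overlap. Whether the mESC change differs from the human ones was not tested, because the tables were normalized separately.

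HNRNPA2B1, a splicing repressor that also carries mRNA along microtubules, was also lower in every P-body library than in either cytoplasm library of its cell type. Its levels were 56.4 and 60.2 CPM in HEK293T P-bodies against 146 and 132 CPM in cytoplasm, and 39.2 and 40.3 against 86.8 and 93.6 CPM in neurons. The log2 changes were -1.25 ± 0.08 and -1.18 ± 0.14 (adjusted p = 1.7e-21 and 2.3e-05). In liver bud progenitors and mESC they were -0.56 ± 0.09 and -0.68 ± 0.13 (adjusted p = 1.3e-07 and 9.6e-05). HNRNPAB, which binds AU-rich and trafficking elements, stood at 86.6 and 87.8 CPM in mESC P-bodies against 129.6 and 134 CPM in cytoplasm (-0.60 ± 0.06, adjusted p = 1.4e-08). Its changes in human cells ran from -1.11 (neurons) to -0.50 (liver bud progenitors). The liver bud call of HNRNPAB was lost under DESeq2 (adjusted p = 0.0567) and without liver bud P-body replicate 2 (0.106).

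The other A/B and D-type genes, whose proteins bind exonic silencers or AU-rich elements, did not move together. HNRNPA1, the best known exonic silencer-binding repressor, was depleted in 3 cell types and enriched in liver bud progenitors. It stood at 309 and 289 CPM in liver bud P-bodies against 201 and 191 CPM in cytoplasm (0.61 ± 0.06, adjusted p = 1.4e-12). In mESC it stood at 64.8 and 61.6 against 97.2 and 91.1 CPM (-0.57 ± 0.07, adjusted p = 3.6e-07), and in HEK293T and neurons its log2 changes were -0.33 ± 0.06 and -0.34 ± 0.09 (adjusted p = 2.1e-06 and 0.0106). The neuron call was lost without neuron cytoplasm replicate 1 (0.0625) or 2 (0.077). Its near-identical copy HNRNPA1L2 was enriched in HEK293T (0.62 ± 0.14) and liver bud progenitors (0.93 ± 0.21), and reads can be split between the 2 genes in ways the counting does not show, so both values are uncertain.

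HNRNPA3, another A/B-type protein, was likewise depleted in HEK293T (-0.60 ± 0.08) and neurons (-0.42 ± 0.13) and enriched in liver bud progenitors (0.31 ± 0.08, adjusted p = 0.00158). The neuron call of HNRNPA3 (adjusted p = 0.0308) was lost under 6 of 11 alternatives, DESeq2 and either neuron cytoplasm library left out among them, and its liver bud call was lost without liver bud P-body replicate 2 (0.0735). HNRNPA0, an AU-rich element binder, fell by 1.21 on the log2 scale in HEK293T, from 44.9 and 42.8 CPM in cytoplasm to 20.6 and 17.5 CPM in P-bodies, and was depleted in neurons (-0.64 ± 0.13) and mESC (-0.75 ± 0.20). HNRNPD, known as AUF1 and a promoter of mRNA decay, was depleted in the 3 human cell types (-0.88, -0.48 and -0.59) and stood at a log2 change of -0.19 ± 0.08 in mESC (adjusted p = 0.057). Its paralog HNRNPDL went the other way. HNRNPDL P-body libraries held 267 and 275 CPM against 182 and 176 CPM in HEK293T (0.60 ± 0.06, adjusted p = 4.1e-13) and 100.03 and 98.4 against 64.7 and 62.5 CPM in liver bud progenitors (0.64 ± 0.09, adjusted p = 2.9e-09), with a change of 0.65 ± 0.10 in mESC. In neurons its fractions overlapped, at 75.8 and 89.7 and 72.4 and 77.4 CPM.

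HNRNPC, which binds uridine tracts in unspliced RNA, had small changes, -0.36 ± 0.05 in HEK293T (adjusted p = 8.9e-08) and -0.15 ± 0.06 in mESC (adjusted p = 0.0366), and did not pass the test in the other 2. The near-identical HNRNPCL1, HNRNPCL3 and HNRNPCL4 stayed at or under 1.77 CPM in every library, and HNRNPCL3 had 0 counts in all 4 HEK293T libraries, which allows up to 0.268 CPM in the shallowest of them (3 counts). Among the F/H proteins, which bind G-rich tracts, HNRNPF was enriched in HEK293T (128 and 129 against 106 and 106 CPM, 0.28 ± 0.07) and depleted in neurons, where its P-body libraries stood apart at 28.7 and 17.6 CPM against 36.4 and 39.6 CPM (-0.72 ± 0.23, adjusted p = 0.035). The HEK293T call was lost with library size scaling (0.15, adjusted p = 0.0913), and the neuron call was lost under 7 of 11 alternatives, among them without neuron P-body replicate 2 (0.0739). HNRNPH1 was depleted in HEK293T (-1.03 ± 0.10) and nowhere else, while its paralog HNRNPH2 was enriched in liver bud progenitors (0.62 ± 0.26, adjusted p = 0.0479). HNRNPH3 was enriched in liver bud progenitors, 56.7 and 68.1 against 46.9 and 43.5 CPM (0.47 ± 0.10), and depleted in mESC, 3.44 and 4.43 against 10.5 and 9.32 CPM (-1.33 ± 0.23), the lowest log2 change of any mouse member.

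HNRNPK, a poly(C)-binding protein and the most abundant or next most abundant member of every cytoplasm per kilobase of 1 annotated transcript, had small changes. It stood at 431 and 451 CPM in HEK293T P-bodies against 569 and 542 CPM (-0.33 ± 0.05, adjusted p = 3e-07). In liver bud progenitors it stood at 329.7 and 304 against 273 and 287 CPM (0.18 ± 0.06, adjusted p = 0.0159). The liver bud call was lost under 7 of 11 alternatives, among them library size scaling, where its change turned to -0.0081, DESeq2 (0.0873) and leaving out liver bud P-body replicate 1 (0.325) or cytoplasm replicate 1 (0.0844). HNRNPM was depleted in HEK293T (-0.73 ± 0.08), neurons (-0.64 ± 0.14) and mESC (-0.79 ± 0.12). HNRNPLL, a paralog of HNRNPL, was enriched in liver bud progenitors (0.66 ± 0.15, adjusted p = 0.00016), where HNRNPL was depleted.

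The U-type genes encode nuclear scaffold proteins. HNRNPU stood at 369 and 451 CPM in neuron P-bodies against 232 and 266 CPM in cytoplasm (0.72 ± 0.11, adjusted p = 0.00022) and at 359.9 and 369.8 against 304 and 317 CPM in liver bud progenitors (0.23 ± 0.06, adjusted p = 0.00083). The liver bud call was lost with library size scaling (0.05, adjusted p = 0.618) and with all human libraries in 1 fit (0.0852). In HEK293T the change was 0.12 ± 0.06 (adjusted p = 0.106), which DESeq2 and the fit without HEK293T cytoplasm replicate 1 called (adjusted p = 0.0102 and 0.00027). In mESC it stood at 277 and 274 against 341 and 339 CPM, a change of -0.30 ± 0.04 (adjusted p = 2.7e-06). HNRNPUL1 was depleted in the 3 human cell types, with neuron libraries at 109 and 106 against 247 and 219 CPM (-1.12 ± 0.10, adjusted p = 3.6e-06) and liver bud libraries at 108 and 107 against 181 and 213 CPM (-0.88 ± 0.08, adjusted p = 2.8e-16). Mouse Hnrnpul1 stood at 235 and 234 against 250.5 and 242 CPM (-0.07 ± 0.05, adjusted p = 0.232). Mouse Hnrnpul2 was depleted, at 33.9 and 33.9 against 52.5 and 53.9 CPM (-0.65 ± 0.09, adjusted p = 2.3e-06). Human HNRNPUL2 shares 2391 exonic bases with the read-through gene HNRNPUL2-BSCL2, which held 24.4 to 74.2 CPM, so its human values depend on how reads were divided.

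Outside SRSF4, SRSF10, SRSF11 and the lowly expressed SRSF12, most SR genes were depleted in HEK293T and mixed elsewhere. SRSF1, the prototype of the family, stood at 91.1 and 96.3 CPM in HEK293T P-bodies against 192 and 191 CPM (-1.03 ± 0.07, adjusted p = 2.5e-20) and at 62.9 and 65.0 against 95.8 and 94.9 CPM in liver bud progenitors (-0.57 ± 0.09, adjusted p = 6e-08). In neurons and mESC its changes were -0.20 ± 0.14 and 0.10 ± 0.07 (adjusted p = 0.327 and 0.284). SRSF2, an SR protein that stays in the nucleus, was depleted in HEK293T (-0.82 ± 0.10), liver bud progenitors (-0.46 ± 0.12) and mESC (-0.48 ± 0.07). SRSF3, the smallest SR protein and an export adaptor, was depleted in all 3 human cell types and enriched in mESC. Its levels were 72.5 and 73.6 CPM against 108 and 105 CPM in HEK293T (-0.55 ± 0.08) and 33.4 and 37.7 against 57.8 and 56.1 CPM in neurons (-0.68 ± 0.16), but 155 and 148 against 94.0 and 107 CPM in mESC (0.60 ± 0.06, adjusted p = 2.7e-08). The neuron call of SRSF3 was lost without neuron cytoplasm replicate 1 (0.0587).

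SRSF5, SRSF6, SRSF7 and SRSF9 were all depleted in HEK293T, at log2 changes of -1.21, -0.27, -1.12 and -1.67. Elsewhere SRSF5 was depleted in liver bud progenitors (-0.64), SRSF6 in neurons (-0.55) and SRSF9 in mESC (-0.82), and SRSF7 passed the test in no other cell type. SRSF12, a relative of SRSF10, was enriched in liver bud progenitors (25.8 and 23.8 against 12.4 and 11.5 CPM, 1.05 ± 0.17) and in mESC (11.7 and 13.6 against 4.89 and 3.73 CPM, 1.55 ± 0.21). SRSF8, a primate copy of SRSF2, did not pass the test in any human cell type. TRA2A stood at 25.3 and 23.2 CPM in HEK293T P-bodies against 80.5 and 75.1 CPM (-1.68 ± 0.10, adjusted p = 3.2e-22), the lowest log2 change of any member there, next to SRSF9 at -1.67. TRA2B stood at 67.7 and 65.9 against 119 and 122 CPM in HEK293T (-0.85 ± 0.08) and, in the other direction, at 77.7 and 77.7 against 56.4 and 57.4 CPM in mESC (0.45 ± 0.07, adjusted p = 2.1e-05). TRA2A was also depleted in neurons (-0.76 ± 0.23, adjusted p = 0.0261) and mESC (-0.44 ± 0.10, adjusted p = 0.00121), so the 2 mouse paralogs were called in opposite directions. With library size scaling the call of Tra2b was lost (0.05, adjusted p = 0.61).

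**Figure D3:**
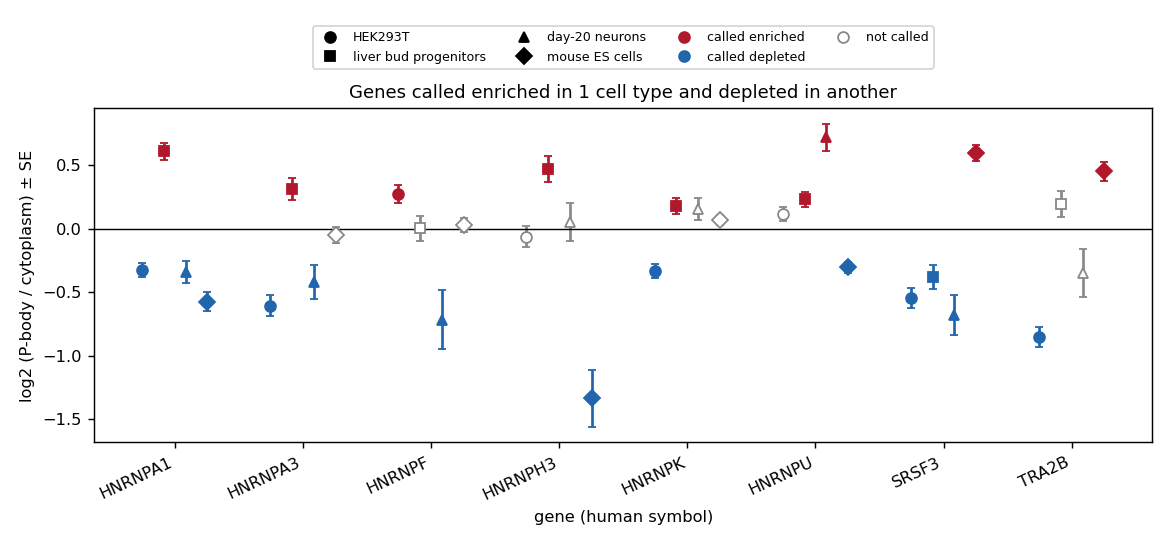
Log2 P-body to cytoplasm change with its SE in each of 4 cell types for the 8 members enriched in at least 1 cell type and depleted in another; marker shape is the cell type, red and blue are called changes and open grey markers are not called. HNRNPA1 is red only in liver bud progenitors (0.61), and SRSF3 and TRA2B are red only in mESC (0.60 and 0.45).

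Per kilobase of transcript, the cytoplasm of all 4 cell types was led by the same 2 members in varying order. Lengths were those of 1 annotated transcript per gene, and whether another choice changes the order was not tested. For HNRNPA1 the length was 3744 bases in human and 1918 in mouse. The SDs below do not cover the choice of transcript. HNRNPK held 192 ± 6.58 CPM per kb in HEK293T cytoplasm (SD, n = 2) and HNRNPL 172 ± 4.05, a gap larger than either SD. HNRNPL led in liver bud progenitors (112 ± 5.64 against 96.9 ± 3.31 for HNRNPK) and in neurons (129 ± 6.26 against 100.4 ± 6.15), and Hnrnpk led in mESC (162 ± 1.08 against 146 ± 1.39 for Hnrnpl). SRSF4 was the next member in HEK293T (159 ± 4.23) and liver bud progenitors (73.6 ± 6.21). It ranked 4 in neurons (76.0 ± 1.94), and mouse Srsf4 ranked 18 in mESC (18.7 ± 1.73). HNRNPL was depleted in P-bodies and SRSF4 enriched in all 4 cell types.

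Liver bud progenitors and neurons come from the same parent line and library type, so the difference between their P-body changes was tested directly. This test and the cytoplasm comparison use the same cytoplasm libraries as the fraction comparisons. The interaction term, neuron change minus liver bud change, called 5 members higher in liver bud progenitors (8.50% of all genes) and 3 higher in neurons (9.21%). The median over members was -0.28, beside 0.23 over all genes. HNRNPA1 differed by -0.95 ± 0.11 (adjusted p = 1.5e-05), moving from enriched in liver bud progenitors to depleted in neurons, and it stayed past the threshold in all 15 alternatives, with adjusted p from 1.6e-14 to 0.00206. HNRNPA3 differed by -0.74 ± 0.15 (adjusted p = 0.00281) and HNRNPA2B1 by -0.62 ± 0.15 (adjusted p = 0.00954). HNRNPU differed by 0.48 ± 0.13 the other way (adjusted p = 0.0172), as did SRSF4 (0.38 ± 0.11, adjusted p = 0.0327) and HNRNPUL2 (0.88 ± 0.28, adjusted p = 0.0434). Each of the 3 differences toward neurons lost its call without at least 6 of the 8 libraries in turn, and HNRNPU was smallest, at 0.21 (adjusted p = 0.171), without neuron P-body replicate 2. In total 4 of 8 A/B and D-type genes were called toward liver bud progenitors and none toward neurons, though HNRNPDL, 1 of these 4, lost its call in 9 of 15 alternatives. With library size scaling 1 member was called toward liver bud progenitors and 7 toward neurons. Of all 22268 genes 940 were then called toward liver bud progenitors and 3520 toward neurons. The median over members turned to 0.08, beside 0.58 over all genes.

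**Figure D4:**
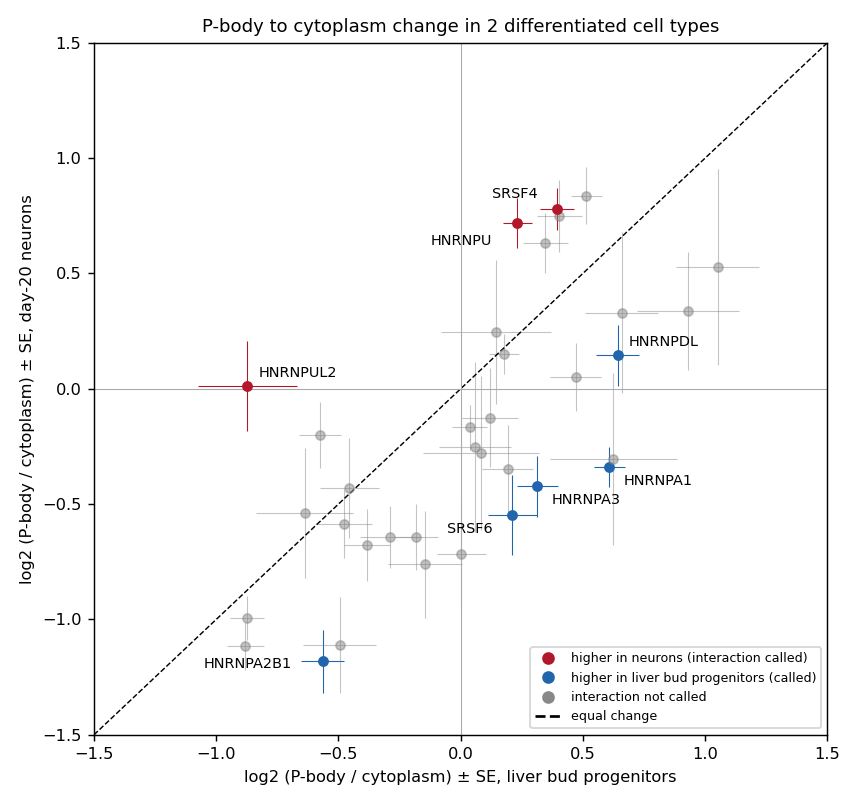
Log2 P-body to cytoplasm change with SE in liver bud progenitors (x axis) against day 20 neurons (y axis) for 35 human members, without the 3 HNRNPCL genes; the dashed line is an equal change. The 5 members in blue lie below the line, HNRNPA1 (0.61 against -0.34) farthest across 0, and the 3 in red lie above it.

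The cytoplasm itself also differed between these 2 cell types. There, 18 of 38 members were higher in neurons (26.0% of all genes) and 7 higher in liver bud progenitors (25.8%), with a median of 0.32 over members and -0.16 over all genes. Scaling by library size alone moved the median over all genes by -0.37 and that over members to -0.06, which turned its sign. It left 5 members called toward neurons and 12 toward liver bud progenitors. Of all 21900 genes it called 4173 toward neurons and 7270 toward liver bud progenitors. Fewer cells of a type and less RNA per cell cannot be told apart in such bulk libraries. HNRNP genes, 24 of the 38 members, made up 15 of the 18. They were led by HNRNPA0, at 98.8 and 86.9 CPM in neurons against 33.4 and 38.7 CPM (1.36 ± 0.12, adjusted p = 4e-17). HNRNPA1 followed, at 314 and 317 against 188 and 178 CPM (0.79 ± 0.08, adjusted p = 4.9e-14), and HNRNPUL2, at 42.4 and 32.9 against 15.6 and 15.7 CPM (1.27 ± 0.16). SR genes, 12 of the 38 members, made up 5 of the 7 that were higher in liver bud progenitors, and 2 SR genes were higher in neurons. Whether the families differ was not tested. SRSF11 stood at 109.6 and 118 CPM in neurons against 190.1 and 196 CPM (-0.76 ± 0.09, adjusted p = 5e-12), SRSF1 at 62.4 and 67.3 against 89.2 and 88.7 CPM (-0.46 ± 0.11, adjusted p = 0.00014) and SRSF2 at 26.5 and 28.5 against 38.3 and 39.1 CPM (-0.50 ± 0.14, adjusted p = 0.00237).

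Other splicing genes were counted in 3 lists, to be read beside the shares of all genes depleted and enriched, which were 22.8% and 19.3% in HEK293T, 17.1% and 21.4% in liver bud progenitors, 14.1% and 14.6% in neurons, and 20.6% and 25.8% in mESC. Of 36 core snRNP and U2 spliceosome proteins, which build the splicing machinery, 28 were depleted and 4 enriched in HEK293T, 18 and 4 in neurons, 18 and 6 in mESC, and 17 and 13 in liver bud progenitors. PRPF8, the scaffold at the catalytic center, was depleted in all 4 (-1.36, -1.30, -1.04 and -0.49 in HEK293T, liver bud progenitors, neurons and mESC), and CDC5L, of the PRP19 complex, was enriched in all 4 (0.96, 1.15, 1.72 and 0.90). SNRPE, a small Sm ring protein, was enriched in liver bud progenitors (1.67) and depleted in HEK293T (-2.57), neurons (-1.22) and mESC (-0.57). Of 26 SR protein kinases, importers and SR-related proteins, 17 were enriched for HEK293T, 12 for liver bud progenitors, 13 for neurons and 17 of 25 tested for mESC, with 4, 8, 5 and 4 depleted. PPIG, a cyclophilin with an RS tail, was enriched in all 4 (1.43, 1.44, 2.87 and 1.55), while SRRM2, a large RS-rich scaffold of nuclear speckles, was depleted in all 4 (-1.45, -1.56, -0.83 and -0.61). Of 33 other splicing regulators, 12 were enriched and 12 depleted in HEK293T, 13 and 12 in liver bud progenitors, 8 and 13 in neurons, and 18 and 7 of 31 tested in mESC. PTBP1, a repressor of neuronal exons, was depleted in all 4 (-1.27, -0.88, -0.68 and -0.23), and RBM25, a U1 snRNP-associated regulator, was enriched in all 4 (1.33, 0.55, 1.45 and 1.26).

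Base composition of the transcripts was set beside the changes, using 1 annotated transcript per gene and genes that averaged 1 CPM or more. Over all genes, the log2 change fell with GC content, with Spearman correlations across genes of -0.57, -0.63, -0.55 and -0.61 in the order HEK293T, liver bud progenitors, neurons, mESC (11799, 13094, 13149 and 11556 genes). Over members the same correlations were -0.21, -0.38, -0.30 and -0.37 (35, 35, 35 and 33 genes, which share libraries and are no independent replicates). Members were AU-rich, with a median GC content of 41.8% in human, where all genes of HEK293T had a median of 47.2%. Even so, most lay under the median change of genes of like GC content. Level was not matched, because the genes compared began at 1 CPM while 27 or 28 members averaged 20 CPM or more. Among genes at 20 CPM or more, without GC bins, the median change was 0.25, 0.33, -0.16 and 0.28 over all genes. Over members at that level it was -0.57, 0.09, -0.35 and -0.05, in the same order. When genes were divided into 10 bins of GC content, 30 of 35 members in HEK293T fell under the median change of their own bin, as did 27 of 35 for liver bud progenitors, 28 of 35 for neurons and 27 of 33 for mESC. The median distance from the bin median was -0.63, -0.40, -0.56 and -0.53 on the log2 scale.

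SRSF4 was the clearest member on the other side. Its human transcript had 51.4% GC and its mouse transcript 56.8%, and its change lay 1.94, 0.69, 1.21 and 1.19 above the bin medians in the same order. SRSF10 and HNRNPR, at 35.9% and 35.1% GC, were enriched but did not stand above genes of like composition. SRSF10 lay -0.08, -0.57, -0.09 and -0.08 from the bin medians, and HNRNPR -0.02, -0.62, -0.21 and -0.45. HNRNPA2B1, at 38.4% GC, lay lowest of the 3 shared depleted members, at -1.72, -1.31, -1.81 and -1.41 from the bin medians, whereas HNRNPL, at 54.3% GC, lay at -0.63, -0.58, -0.56 and 0.07. The share of AGA among arginine codons had Spearman correlations with the change of 0.48, 0.47, 0.47 and 0.47 over all genes and of 0.29, 0.53, 0.29 and 0.13 over members. For transcript length the correlations were 0.34, -0.10, 0.19 and 0.16 over all genes and 0.28, 0.14, 0.25 and 0.32 over members.

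**Figure D5:**
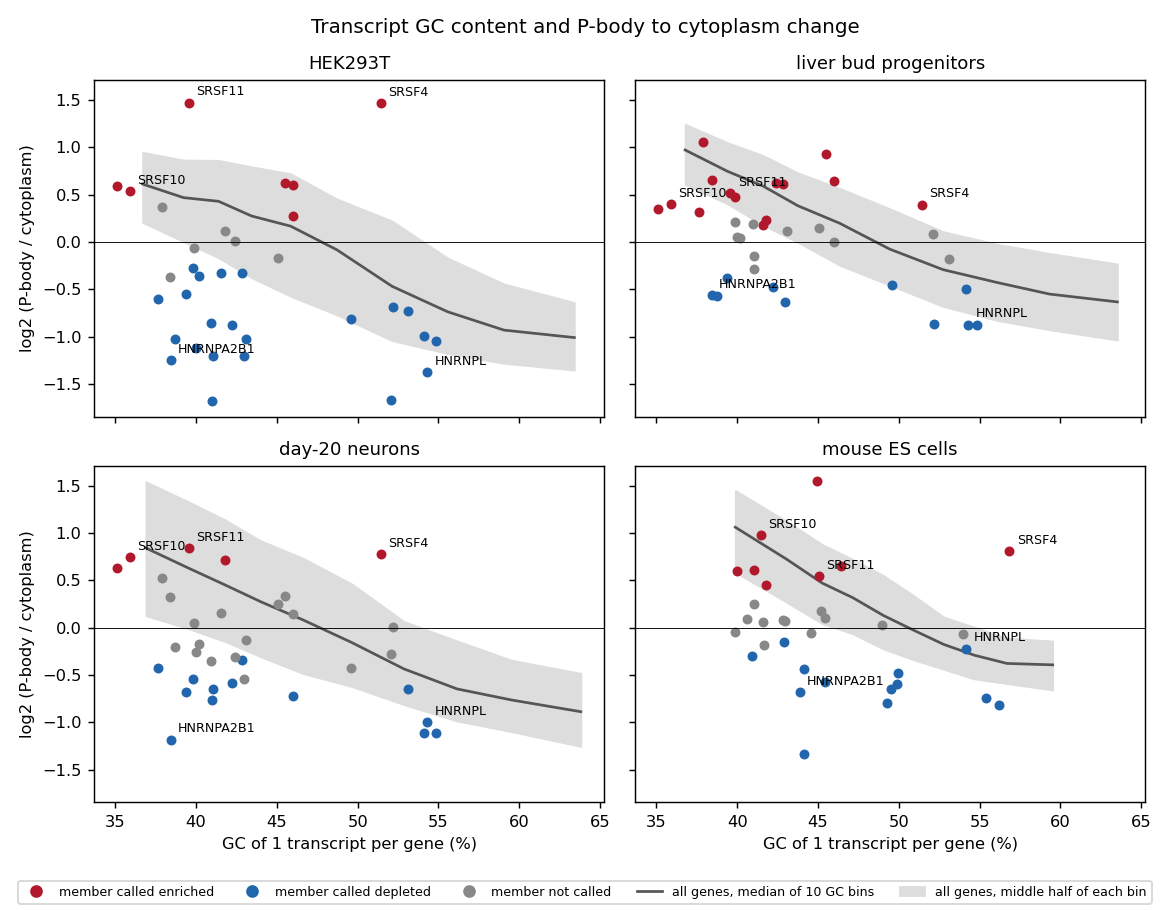
GC content of 1 transcript per gene (x axis, percent) against log2 P-body to cytoplasm change (y axis) in 4 cell types; points are members colored by call, the line is the median of all genes in 10 GC bins and the band spans the lower to the upper quartile of each bin. Most points lie under the line (30 of 35 in HEK293T), SRSF4 lies above it in every panel and HNRNPA2B1 below it.

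Gene-level counts do not separate isoforms. In the annotation, 28 of 38 human members had at least 1 isoform marked for nonsense-mediated decay and 27 at least 1 with a retained intron, and 21 and 24 of 33 did in mouse, so a change can be of the coding mRNA, of such an isoform or of both. Exons of 10 human and 6 mouse members overlap those of another gene in the table. They include the opposite-strand pairs HNRNPA2B1 with NFE2L3 (1207 bases) and CBX3 (368), HNRNPA3 with NFE2L2 (3509) and HNRNPU with COX20 (3502). Other such pairs are HNRNPAB with PHYKPL (196), SRSF2 with MFSD11 (823) and SRSF9 with GATC (1725). SRSF9 also shares 124 bases with NRAV on the same strand. No strand setting is given in the sources used here, so reads of the opposite-strand pairs may not be told apart.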

How the data were processed

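P-bodies and presort cytoplasm were sequenced in 4 cell types, 2 libraries each. Per the study's methods, total RNA (snapTotal-seq) reads went through the nf-core RNA-seq pipeline with salmon, Smart-seq reads through hisat2 and featureCounts, to hg38 or mm10 with UCSC refGene. The deposited count tables, human and mouse, hold whole raw counts per gene, not normalized, for genes with at least 10 reads in all, with every column matched to a sample. Deposited tables of the authors' base means, fold changes and p-values were not used. Counts were scaled by TMM and tested with edgeR 4.0.16 (R 4.3.3) quasi-likelihood F tests, cell type by cell type on 4 libraries, dropping genes at 0 in all, with Benjamini-Hochberg adjustment over all genes. The interaction used 8 libraries and the cytoplasm comparison 4. Alternatives were DESeq2 1.42.0, RLE and library-size scaling, filterByExpr, no ribosomal RNA genes, a replicate block, 1 fit of all 12 human libraries and leaving out each library.

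Depth was 6368953 to 17972284 counts, where 3 counts are 0.167 to 0.471 CPM, and this floor covers counting error only. The procedure was tested on simulated data with 200 genes changed in each comparison. Each change was 1.585 on the log2 scale, up or down, in genes above low counts, with the spread between libraries fixed in advance. The procedure recovered 98.5% to 100% of these genes in the fraction comparisons and 89% in the interaction. Recovery of smaller changes, such as most of those given here, was not tested, nor was the choice of scaling. Transcripts came from GENCODE 44 (hg38) and M21 (mm10).

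Members and gene lists were chosen with earlier results of these data known. Genes named were, per comparison and direction, the 3 called members of smallest p, for the fractions averaging 20 CPM or more and with libraries that did not overlap, then those called alike in all 4 cell types or in opposite directions, and up to 3 per list and direction. Other members are given with a log2 change.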

Additional observations from a re-analysis of the deposited data

Results flagged for a closer look

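The interaction term called 8 of 38 members, whose P-body change differed between day 20 neurons and liver bud progenitors. Differences are neuron minus liver bud on the log2 scale, from edgeR's quasi-likelihood test with Benjamini-Hochberg adjustment over all genes. Calls toward liver bud progenitors made up 13.2% of members and 8.50% of all 22268 genes. Calls toward neurons made up 7.89% of members and 9.21% of all genes. Whether members differ from all genes in these shares was not tested. Lower in neurons were HNRNPA1 by -0.95 (adjusted p = 1.5e-05), SRSF6 by -0.77 (adjusted p = 0.0178), HNRNPA3 by -0.74 (adjusted p = 0.00281), HNRNPA2B1 by -0.62 (adjusted p = 0.00954) and HNRNPDL by -0.50 (adjusted p = 0.0337). Higher in neurons were HNRNPUL2 by 0.88 (adjusted p = 0.0434), HNRNPU by 0.48 (adjusted p = 0.0172) and SRSF4 by 0.38 (adjusted p = 0.0327). HNRNPA1 and HNRNPA3 were called in opposite directions in the 2 cell types, and HNRNPA2B1 was depleted in both. Over 15 alternatives, HNRNPA1 kept its call in all, HNRNPA3 lost it in 1 (adjusted p up to 0.115), HNRNPA2B1 in 3 (up to 0.284), SRSF6 in 4 (up to 0.216), HNRNPU in 6 (up to 0.196), SRSF4 in 8 (up to 0.186), HNRNPDL in 9 (up to 0.598) and HNRNPUL2 in 9 (up to 0.219). The 2 neuron P-body libraries stood apart from each other, and the part of this spread in these differences was not tested.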

How the results depend on the processing

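SRSF4, SRSF11, HNRNPL and HNRNPA2B1 kept direction and call in all 4 cell types under each of 43 alternative fits per gene, while HNRNPR lost a call in 3, SRSF10 in 2 and HNRNPAB in 2, none changing sign. Scaling by library size alone shifted the median of all genes, in HEK293T by -0.13, for liver bud progenitors by -0.18, for neurons by 0.17, for mESC by -0.40, for the interaction by 0.35 and for the cytoplasm comparison by -0.37. Under it, enriched members numbered 8 in liver bud progenitors, and depleted members 7 in neurons and 23 in mESC. Interaction calls numbered 7 toward neurons and 1 toward liver bud progenitors, and cytoplasm calls 5 toward neurons and 12 toward liver bud progenitors. Over all genes the same calls numbered 3822, 2356, 6609, 3520, 940, 4173 and 7270, in this order. Library size scaling also turned HNRNPK in liver bud progenitors to -0.0081 (adjusted p = 0.934). In mESC it turned Hnrnpf to -0.37 and Hnrnpk to -0.34 (adjusted p = 2.4e-06 and 5.1e-08), values near the shift itself. DESeq2 called 4 members higher in liver bud cytoplasm. Interaction calls toward neurons numbered 5 with filterByExpr and 1 without ribosomal RNA genes, and those toward liver bud progenitors rose to 8 with the replicate block and 11 with all human libraries in 1 fit. Leaving out each library gave 5 to 15 depleted members in neurons (5 without cytoplasm replicate 1, 7 without cytoplasm replicate 2), 0 to 2 interaction calls toward neurons and 2 to 16 toward liver bud progenitors (16 without neuron P-body replicate 2, 11 without replicate 1), and 4 to 8 members higher in liver bud cytoplasm. These fits have fewer samples, and the cause of the other shifts was not tested. Same-numbered libraries did not deviate together (correlations of -0.10, 0.03, 0.10 and -0.03). In the study P-bodies were sorted out of the cytoplasmic fraction, so libraries of the same number may come from 1 preparation. With 2 libraries a fraction these correlations cannot decide that, and the main fits treated the libraries as unpaired. The replicate block moved no other count of members by over 1.5 times. Over 895 alternative values of named members, 786 kept direction and side of the threshold, 76 lost the call in the same direction, 11 gained it and 22 changed sign, 3 of which are given above. The other 19 passed the test in neither fit. HNRNPH3 in HEK293T turned to 0.0239 (DESeq2), 0.0241 (RLE), 0.0626 (all human libraries), with -0.108 to 0.0176 when 1 library was left out, and HNRNPU there to -0.0128 (library size). HNRNPF in liver bud progenitors, at 0.0023, turned to -0.0156 (DESeq2), -0.0155 (RLE), -0.184 (library size), -0.0865 (filterByExpr), -0.0201 (no ribosomal RNA genes), -0.0195 (all human libraries), with -0.0393 to 0.0299 when 1 library was left out. In mESC Hnrnpf turned to -0.0562 (filterByExpr) and -0.0109 (without P-body replicate 1) and Hnrnpk to -0.0181 (filterByExpr), and in neurons HNRNPH3 to -0.0604 (all human libraries), with -0.0092 to 0.0841 when 1 library was left out. Depth limits the HNRNPCL genes, with at most 16 counts in a library.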
